A study of Arabidopsis thaliana with 54 samples.

Results

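The 10 genes described here carry nitrate to amino acids, and were taken from the deposited gene count table by locus identifier, as 10 of its 32833 gene identifiers. They are the nitrate reductases NIA1 (AT1G77760) and NIA2 (AT1G37130), nitrite reductase NIR1 (AT2G15620), plastid glutamine synthetase GLN2 (AT5G35630), ferredoxin-dependent glutamate synthase GLU1 (AT5G04140), the asparagine synthetases ASN1 (AT3G47340), ASN2 (AT5G65010) and ASN3 (AT5G10240), and the glutamate dehydrogenases GDH1 (AT5G18170) and GDH2 (AT5G07440). The series measured mRNA by RNA-seq in whole Arabidopsis thaliana seedlings of accession Columbia 0, labelled as 12-day old. All seedlings spent their first 10 days in equinox (EQ, 12 h light, 12 h dark), and 2 further days in short day (SD, 8 h light, 16 h dark), in EQ, or in long day (LD, 16 h light, 8 h dark). In each of the 3 photoperiods, 3 replicates were harvested at 6 zeitgeber times (ZT, hours after dawn) from ZT00 to ZT20, which makes 18 groups and 54 libraries, and each replicate pooled about 50 seedlings of 1 plate. By the labels ZT00 was dark in every photoperiod. Light samples were ZT04 and ZT08 in SD, ZT04 to ZT12 in EQ, and ZT04 to ZT16 in LD.

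Nitrate reductase turns nitrate into nitrite in the cytosol, and nitrite reductase turns nitrite into ammonium in the plastid with electrons from ferredoxin. Glutamine synthetase joins ammonium to glutamate, and glutamate synthase passes the amide of glutamine on to make glutamate. Both act in the chloroplast by day and also take up the ammonium that photorespiration sets free. Asparagine synthetase moves the amide of glutamine to aspartate. Asparagine carries much nitrogen per carbon, and ASN1, also named DIN6, belongs to the genes known to be induced by darkness and by lack of sugar. Glutamate dehydrogenase of the mitochondrion releases ammonium from glutamate and returns its carbon skeleton to respiration when carbon is short.

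Library totals ran from 2430049 to 4124570 counts without spike-ins. Summed over 6 leaf markers, levels were between 870 and 4190 CPM (counts scaled to a common library size by the trimmed mean of M-values) per library. Summed over 6 root markers they were 0 to 12.7 CPM, so defining root transcripts were at or near 0 in seedlings labelled as whole, and in such bulk samples fewer cells of a type and less RNA per cell cannot be told apart. Genes overlapped by another gene on the opposite strand, 8988 of the 32548 matched to the TAIR10.1 annotation, held 92.9% of all counts. NIA1, NIA2, NIR1, GLN2, ASN2, ASN3 and GDH2 had no such overlap, GLU1 overlapped BHLH101 by 79 bp, ASN1 overlapped AT3G47341 by 11 bp and GDH1 overlapped AT5G18180 by 166 bp, and these partners averaged 11.1, 0.111 and 1.26 counts. The members averaged 0.167 (ASN3) to 502 (NIA2) counts per library. The effect of the stranded setting of the authors' alignment on these counts was not tested.

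Among the members, the 18 group means of ASN1, GDH1 and GDH2 had the highest correlations with each other (Pearson's r = 0.70 to 0.83). The 250 bases before the annotated start are therefore shown for these 3 genes. They were read from RefSeq TAIR10.1 at chr3:17441432-17441681 on the minus strand, chr5:6005785-6006034 on the plus strand and chr5:2355509-2355758 on the plus strand. Capitals mark the G-box CACGTG, any other ACGT and the letters TATCCA on either strand.
ASN1: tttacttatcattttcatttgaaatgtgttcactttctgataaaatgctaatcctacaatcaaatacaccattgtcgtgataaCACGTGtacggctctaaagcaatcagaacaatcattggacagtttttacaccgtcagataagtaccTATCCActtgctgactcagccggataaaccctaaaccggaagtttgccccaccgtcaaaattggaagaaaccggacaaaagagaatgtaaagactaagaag
GDH1: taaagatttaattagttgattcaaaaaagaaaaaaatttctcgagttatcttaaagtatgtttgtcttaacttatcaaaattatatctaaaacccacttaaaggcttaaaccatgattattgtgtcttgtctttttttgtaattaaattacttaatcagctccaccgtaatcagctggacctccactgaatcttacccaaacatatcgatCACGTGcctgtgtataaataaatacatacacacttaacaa
GDH2: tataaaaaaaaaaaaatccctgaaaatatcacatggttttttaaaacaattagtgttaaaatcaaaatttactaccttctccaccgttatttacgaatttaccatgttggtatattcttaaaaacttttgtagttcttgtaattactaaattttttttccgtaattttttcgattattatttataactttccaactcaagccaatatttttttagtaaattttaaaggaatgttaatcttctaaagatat
The G-box, a palindrome that contains ACGT and is read by bZIP and bHLH factors, stood 162 bases before the start of ASN1 and 35 bases before that of GDH1. None was found in these letters of GDH2, whose course over the day was most like theirs among the members. Of 27437 promoters of this length, 6.49% held CACGTG and 44.1% held ACGT, which was also found in NIA2, GLN2 and ASN2. TATCCA, a sugar-response element known from rice, stood in 13.6% of promoters and in those of ASN1, GLU1 and ASN3. The evening element AAAATATCT (2.36% of promoters) and the GCC-box AGCCGCC (0.587%), both searched on either strand, were in no promoter of the 10.

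Per kilobase of exon, NIA2 had the highest level, 47.5 CPM per kb as the mean of 54 libraries, followed by GLN2 at 31.4, GLU1 at 10.3, NIA1 at 9.46 and NIR1 at 7.88 CPM per kb. ASN1 and GDH1 followed at 5.44 CPM per kb each, GDH2 at 5.12, ASN2 at 1.79 and ASN3 at 0.0236. NIA2 was above GLN2 in 32 of 54 libraries and GLU1 above NIA1 in 28, so neighbours in this order often changed places, while GLN2 was above GLU1 in 54 of 54. The spread over the 18 group means was 30.4 CPM per kb for NIA2 and 8.14 for ASN1, but 5.49 for GLN2. ASN3 had 9 counts in replicate A of LD ZT20 and 0 in the other 53 libraries, and ASN1 and ASN2 were listed at 0 in 15 and 22 libraries. A listed 0 stood in the same group as up to 57 counts for ASN1, 31 for ASN2, 46 for GDH1, 45 for GDH2 and 20 for NIR1, so single zeros of these genes are no precise counts. The filter on low counts over all libraries passed 9 of the 10 genes and left out ASN3.

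Averaged over the 6 time points, seedlings in SD held more ASN1 mRNA and less NIR1, GLU1 and GLN2 mRNA than seedlings in LD. At ZT12 and ZT16 SD was in the dark and LD in the light. Photoperiod and light state at harvest therefore cannot be told apart in a day-wide difference. The day-wide difference is the contrast of the means of 6 time points in 1 edgeR quasi-likelihood fit of 54 libraries, and FDR is the Benjamini-Hochberg adjusted p over 14115 genes. With FDR under 0.05 as the threshold, and edgeR as the test of every call where no other tool is named, 4 of the 9 members tested passed it, 1 higher and 3 lower in SD, where 12% of all genes tested passed, 5.78% higher and 6.23% lower. The median log2 fold change was -0.19 over the 9 members and -0.06 over all genes. NIR1 was lower by a log2 fold change of -1.05 (SE 0.22, FDR = 0.000521), GLU1 by -0.58 (SE 0.09, FDR = 3.13e-06) and GLN2 by -0.32 (SE 0.09, FDR = 0.0192). ASN1 was higher by 2.96 (SE 0.64, FDR = 0.00103), a value that depends on the prior count because LD ZT12 was at 0 in all libraries. The ASN1 call was lost without replicate C (FDR = 1.0), and that of GLN2 without replicate A (FDR = 0.243) or B (FDR = 0.0858). NIA2 did not pass, at 0.00 (SE 0.13), nor did NIA1 at -0.31 (SE 0.16), ASN2 at -0.19 (SE 0.84), GDH1 at 0.49 (SE 0.34) and GDH2 at 0.91 (SE 0.37), which DESeq2 called (adjusted p = 0.0239).

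**Figure D1:**
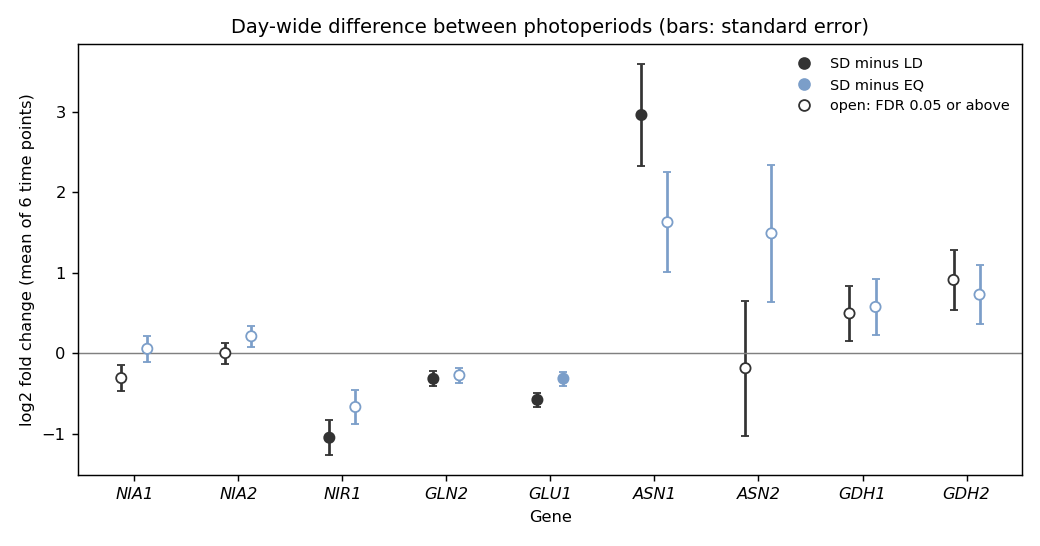
Log2 fold change of the mean over 6 time points, SD minus LD in black and SD minus EQ in blue, for the 9 genes tested. Bars are standard errors and filled points have FDR under 0.05. NIR1, GLN2 and GLU1 lie below 0 and ASN1 above it in SD minus LD, and GLU1 is the only filled point in SD minus EQ.

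Of the 6 leaf markers, 3 were also called lower in SD than in LD over the day and 0 higher, where 6.23% of all genes were lower. RBCS3B was lower by a log2 fold change of -0.60 (FDR = 3.21e-07), RCA by -0.30 (FDR = 0.00532) and RBCS1A by -0.27 (FDR = 0.0202). LHCB1.3, LHCA3 and PSAF were not called, and the median over the 6 was -0.14. The part of the leaf markers in the lower NIR1, GLU1 and GLN2 was not tested. Between SD and EQ, 1 of 9 members passed day-wide against 4.99% of all genes. This was GLU1 at -0.32 (SE 0.09, FDR = 0.0202), and its call was lost without replicate A (FDR = 0.112), B (0.165) or C (0.219) and without the filter (0.0633). Between EQ and LD edgeR called 0 of 9, with 2 at an unadjusted p under 0.05 and 1 called by DESeq2, and 1.35% of all genes passed. The daily expression integral (DEI, area under the mean CPM over 24 h) was compared without a test. The log2 ratio of DEI in SD to that in LD was 2.6 (SE 0.32) for ASN1, 1.07 (SE 0.18) for GDH2, 0.56 (SE 0.15) for GDH1, -0.81 (SE 0.12) for NIR1, -0.58 (SE 0.08) for GLU1, -0.33 (SE 0.08) for GLN2, -0.36 (SE 0.13) for NIA1, 0.02 (SE 0.09) for NIA2 and -0.54 (SE 0.51) for ASN2. Without replicate C the ratio of ASN2 was -1.60, and from means of log2 CPM that of NIR1 was -1.14. For ASN1 the integral was 667 CPM h (SE 87.8) in SD, 299 (SE 38.9) in EQ and 110 (SE 19.6) in LD, so EQ lay between the others.

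The daily course itself differed between photoperiods for ASN1, GLU1 and NIR1. A test of the interaction of photoperiod and time passed for these 3 of 9 members, against 9.42% of all genes, with FDR = 0.00274 for ASN1, 0.000935 for GLU1 and 0.0224 for NIR1. Leaving out replicate B ended each call (FDR = 0.291 for ASN1, 0.201 for GLU1 and 0.378 for NIR1), as did leaving out replicate C (0.140, 0.0897 and 0.0732), and for NIR1 also replicate A (0.693). In single comparisons of 2 photoperiods at 1 time, 14 member calls were made over 18 comparisons. All 14 fell in the 4 comparisons whose 2 photoperiods had opposite light states. In the 14 comparisons with the same light state edgeR called 0 of 117 member tests (0.388% of tests over all genes), 18 had an unadjusted p under 0.05 and DESeq2 called 5. Photoperiod and light state at harvest cannot be told apart in those 4 comparisons. The groups of those comparisons also enter the day-wide, DEI and interaction results, which carry the same limit.

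NIA2 (chr1:14158452-14161938, plus strand), which provides most nitrate reductase activity in Arabidopsis leaves, fell from the end of the night to the first light sample in each photoperiod. At ZT00, at the end of the night, its 3 libraries had 277, 336 and 305 CPM in SD, 399, 266 and 233 in EQ and 297, 297 and 336 in LD. At ZT04, in the light, they had 99.2, 105 and 79.9 CPM in SD, 38.8, 49.9 and 53.0 in EQ and 129, 73.9 and 87.1 in LD. The groups did not overlap between the time points in any photoperiod. Light state and time of day change together from ZT00 to ZT04 and cannot be told apart. Across dawn (ZT04 minus ZT00) NIA2 fell by a log2 fold change of -1.69 (SE 0.33, FDR = 0.000287) in SD, -2.66 (SE 0.34, FDR = 2.64e-07) in EQ and -1.68 (SE 0.33, FDR = 0.000470) in LD, and these calls held under each alternative run. The fall in EQ did not pass a test of difference from that in SD (0.97, SE 0.45, FDR = 0.588) or in LD (-0.98, SE 0.45, FDR = 0.542). Its lowest mean was 63.4 CPM at ZT08 in SD, 47.2 at ZT04 in EQ and 71.2 at ZT08 in LD, which put the highest mean 4.83-fold, 6.77-fold and 4.35-fold above the lowest.

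NIA2 differed over the day in SD (FDR = 1.21e-06), EQ (FDR = 5.35e-10) and LD (FDR = 3.69e-06), in a test of 6 time points that 17.4%, 15% and 13.3% of all genes passed. With NIA2, 4 members passed in SD (ASN1, GLU1 and NIR1 too), 3 in EQ (ASN1 and NIA1 too) and 3 in LD (ASN1 and GLU1 too). The ASN1 calls had FDR = 0.0300, 0.0249 and 0.0471 and were lost without any 1 of the 3 replicates (0.0761 to 0.550), in LD also without the filter (0.0707) and with DESeq2's size factors (0.0509), and that of GLU1 without replicate B (0.0579 in SD and 0.0960 in LD). Between photoperiods NIA2 passed in 0 of 18 comparisons by edgeR, with 5 at an unadjusted p under 0.05 and 3 called by DESeq2. At ZT20 its mean was 320 ± 14.3 CPM in EQ (standard deviation, s.d., n = 3) against 208 ± 44.9 in SD and 206 ± 11.3 in LD. NIA2 in EQ thus lay above both at ZT20 and below both at ZT04, without overlap. By edgeR the FDR was 0.364 against SD at ZT20, 0.0502 against LD at ZT20 and 0.400 against SD at ZT04, and these 3 were the DESeq2 calls (adjusted p = 0.0311, 4.07e-10 and 0.00328).

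NIA1 (chr1:29235721-29239484, minus strand), the second nitrate reductase, had lower levels and less change. Its highest mean was 34.0 ± 3.17 CPM at ZT04 in SD, in the light, but 40.1 ± 9.41 at ZT20 in EQ and 43.9 ± 2.05 at ZT00 in LD, in the dark (s.d., n = 3). In LD the light sample ZT16 was at 40.6 ± 1.96 CPM and the dark sample ZT20 at 40.4 ± 4.83. By edgeR NIA1 passed the test over the day in EQ only. In LD it fell across dawn from 46.1, 42.2 and 43.3 CPM to 20.4, 17.4 and 12.4 CPM, which did not overlap. The log2 fold change was -1.39 (SE 0.40, FDR = 0.0253), and the call was lost without replicate B (0.270) or C (0.343) and without the filter (0.0636). In SD the same step gave 0.39 (SE 0.39, FDR = 0.707), and the difference of 1.77 (SE 0.55) between these steps had FDR = 0.184 by edgeR and was called for NIA1 by DESeq2 (adjusted p = 0.0351). Among the members, 2 of 9 passed at dawn in LD (NIA1 and NIA2), against 5.64% of all genes, 1 in EQ against 8.21% and 2 in SD against 8.63%. Over the day in EQ NIA1 had FDR = 0.0132, lost without replicate B (0.313) or C (0.0989).

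**Figure D2:**
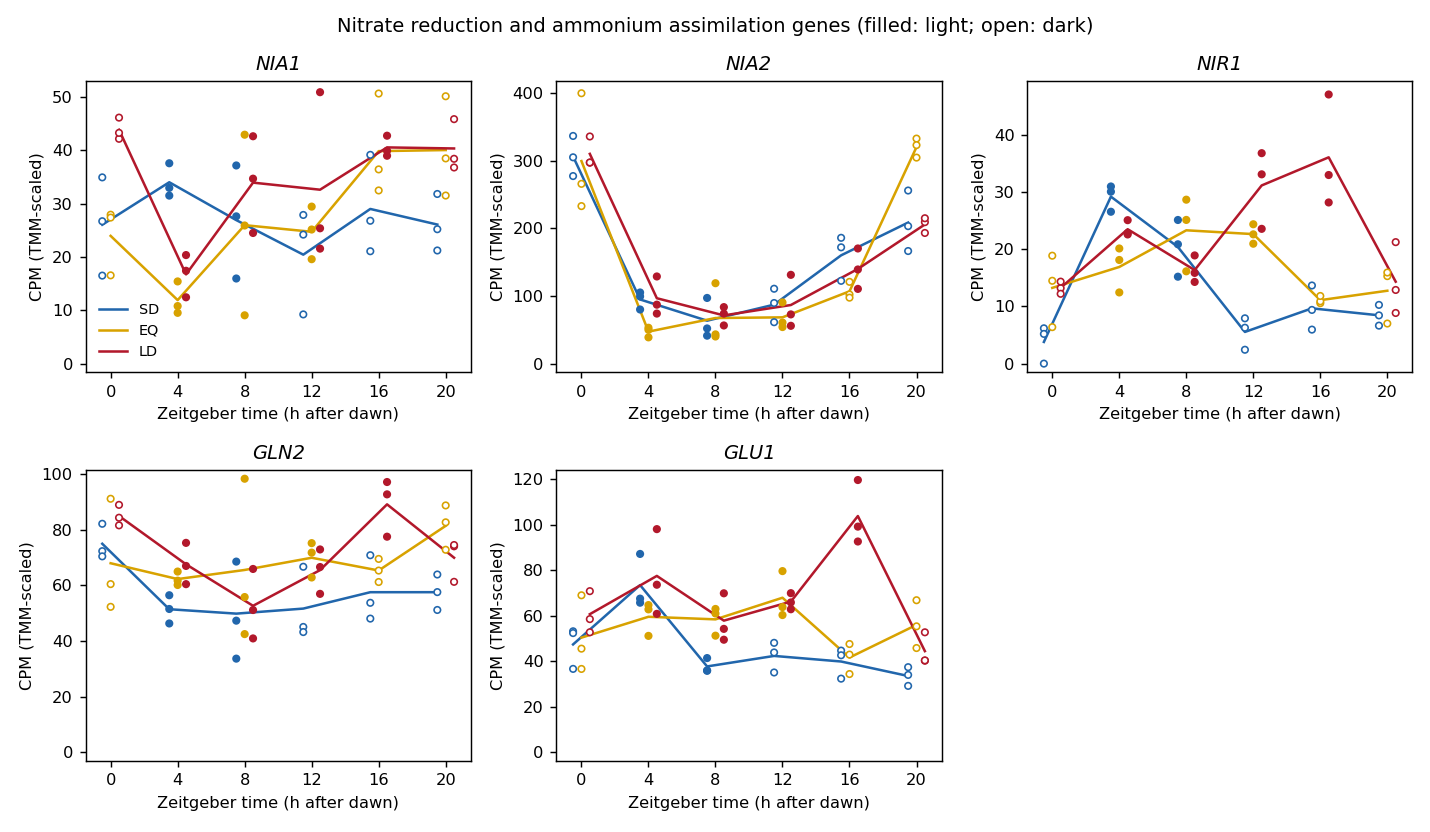
Level in CPM against zeitgeber time for NIA1, NIA2, NIR1, GLN2 and GLU1, with 1 point per library and lines through the means of 3. SD is blue, EQ yellow and LD red, and points are filled in the light and open in the dark. NIA2 is near 300 CPM at ZT00 in each photoperiod, while NIR1 and GLU1 reach their highest means at ZT16 in LD (36 and 104 CPM).

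NIR1 (chr2:6810395-6812941, plus strand) averaged more in the light than in the dark samples of each photoperiod. The means were 24.8 against 6.85 CPM in SD, 20.9 against 12.3 in EQ and 26.7 against 13.8 in LD. In EQ and LD single light and dark groups overlapped. In LD the light sample ZT08 had 14.3, 15.8 and 18.9 CPM, within the range of the dark sample ZT20. By edgeR NIR1 passed the test over the day in SD only. In SD its means were 29.2 ± 2.33 CPM at ZT04 and 20.4 ± 4.97 at ZT08, then 5.53 ± 2.82, 9.65 ± 3.86, 8.43 ± 1.81 and 3.78 ± 3.31 in the dark at ZT12, ZT16, ZT20 and ZT00 (s.d., n = 3). In LD it was highest at ZT16, with 47, 32.9 and 28.1 CPM, and at 8.84, 21.2 and 12.9 CPM at ZT20 in the dark. Across dawn it rose in SD from 6.16, 5.19 and 0 CPM to 30.0, 30.9 and 26.5 CPM. The log2 fold change was 2.93 (SE 0.57, FDR = 0.000285), which held under each alternative run. The 0 at SD ZT00 was listed beside 18 and 20 counts. In EQ and LD the step did not pass (0.35, SE 0.53, FDR = 0.872 and 0.83, SE 0.53, FDR = 0.433). The SD step exceeded that of EQ by 2.58 (SE 0.76, FDR = 0.301) and that of LD by 2.11 (SE 0.76, FDR = 0.306), so neither passed by edgeR, while DESeq2 called both for NIR1 (adjusted p = 0.000962 and 0.0100). Levels at ZT00 were 18.8, 6.37 and 14.5 CPM in EQ and 13.2, 14.3 and 12.2 in LD. Those of SD lay below all of them, though 6.16 CPM in SD was close to 6.37 in EQ.

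At ZT12, dark in SD and light in the others, NIR1 had 7.91, 6.27 and 2.42 CPM in SD, 24.3, 20.9 and 22.6 in EQ and 36.7, 33.1 and 23.5 in LD. SD was below both without overlap, with log2 fold changes of -2.45 against LD (SE 0.47, FDR = 0.0258) and -1.99 against EQ (SE 0.44, FDR = 0.0297). At ZT16, light in LD only, NIR1 was lower by -1.86 in SD (SE 0.38, FDR = 0.0299) and by -1.65 in EQ (SE 0.25, FDR = 0.0101) than in LD. Each of these 4 calls was lost when any 1 replicate letter was left out (FDR = 0.0729 to 0.217), which leaves 2 libraries a group, and those of SD at ZT12 against EQ (0.0616) and at ZT16 against LD (0.0530) also without the filter. Across dusk NIR1 fell in SD by -1.87 (SE 0.55, FDR = 0.0194), a call lost with any 1 replicate left out (0.102 to 0.165) and with library totals as the only scaling (0.0517). In EQ (-1.03, SE 0.53) and LD (-1.33, SE 0.53) the step did not pass by edgeR, the latter was called by DESeq2 (adjusted p = 0.00294), and differences between photoperiods had FDR of 0.941 or more. Of the leaf markers 4 of 6 fell across dusk in SD and 3 of 6 in EQ, LHCB1.3 by -1.79 and -1.83, while RBCS1A and RBCS3B were at 0.11 and 0.03 in SD. In LD no leaf marker was called by edgeR, with LHCB1.3 at 1.01 (SE 0.44, unadjusted p = 0.0280, FDR = 0.232), RCA at 0.27, PSAF at 0.12 and RBCS3B at -0.38. The part of these markers in the NIR1 steps was not tested.

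GLU1 (chr5:1129785-1138488, plus strand) was higher in LD than in the other photoperiods late in the day. At ZT16 its libraries had 99.1, 120 and 92.6 CPM in LD, in the light, 44.7, 42.6 and 32.4 in SD and 34.4, 42.9 and 47.6 in EQ, both in the dark. LD was above both without overlap, and SD and EQ overlapped. The log2 fold change was -1.34 in SD against LD (SE 0.19, FDR = 0.00985) and -1.27 in EQ against LD (SE 0.17, FDR = 0.00720), lost with any 1 replicate left out (0.0614 to 0.123). Across dusk GLU1 fell in LD to 40.2, 52.7 and 40.4 CPM at ZT20, by -1.22 (SE 0.21, FDR = 7.36e-05), which held under each alternative run. In EQ it fell by -0.71 (SE 0.21, FDR = 0.0328), a call lost with any 1 replicate left out (0.0760 to 0.432), without the filter (0.0785) and with library totals as the only scaling (0.149). In SD its level was 41.4, 35.8 and 36 CPM before dusk and 35.1, 43.9 and 48.1 after it, a change of 0.17 (SE 0.21, FDR = 0.820). The step of SD differed from that of LD by 1.39 (SE 0.30, FDR = 0.00284), lost without replicate B (0.198) or C (0.129), and 2.84% of all genes passed that test.

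**Figure D3:**
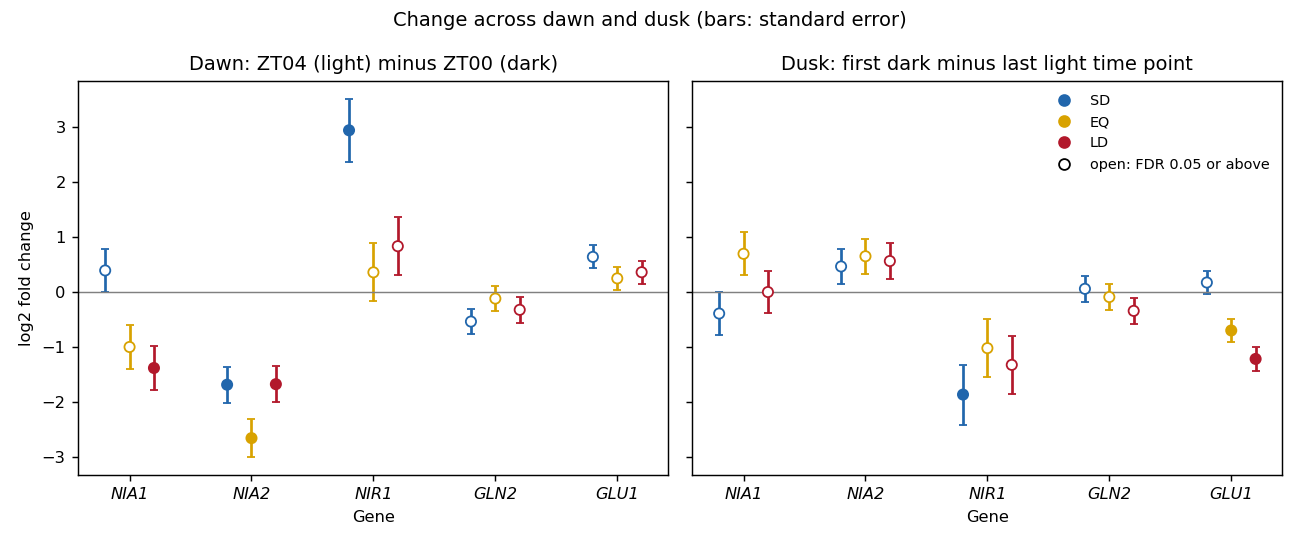
Log2 fold change with its standard error across dawn (left) and dusk (right) for 5 genes in SD (blue), EQ (yellow) and LD (red), filled where FDR is under 0.05. NIA2 is filled below 0 at dawn in each photoperiod, and GLU1 moves from 0.17 at dusk in SD to -1.22 in LD.

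GLU1 had its highest mean at ZT04 in SD (73.5 ± 11.9 CPM), ZT12 in EQ (67.9 ± 10.3) and ZT16 in LD (104 ± 14.1; s.d., n = 3). In SD it was already at 37.7 ± 3.18 CPM by ZT08, still in the light, when EQ had 58.4 ± 6.28 and LD 57.8 ± 10.7. At ZT08 its 3 libraries in SD lay below all those of EQ and LD, without a call. GLN2 (chr5:13830429-13833542, plus strand), which acts with GLU1 in the chloroplast, was the steadiest member. Its group means lay between 49.9 ± 17.6 CPM (SD ZT08) and 89.2 ± 10.3 (LD ZT16; s.d., n = 3), and the highest mean was 1.5-fold above the lowest in SD, 1.31-fold in EQ and 1.69-fold in LD. At ZT16 the libraries had 53.8, 70.9 and 48.1 CPM in SD and 92.8, 97.2 and 77.6 in LD, without overlap. Yet 0 of 18 comparisons passed by edgeR, with 3 at an unadjusted p under 0.05 and 1 called by DESeq2.

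ASN1 (chr3:17437840-17441431, minus strand) had its highest mean in the first dark sample after an SD or EQ day. It averaged less in light than in dark samples, with 5.85 against 38.8 CPM in SD, 4.11 against 20.8 in EQ and 2.30 against 9.19 in LD. Single light and dark groups overlapped in each photoperiod. In EQ the light sample ZT08 had 0, 6.04 and 20.4 CPM, the last above all libraries of the dark sample ZT20 (mean 12.9). At ZT08 ASN1 had 34, 57 and 30 counts in replicate C of SD, EQ and LD, each the highest of its group. At ZT12 its libraries had 63.0, 83.0 and 130 CPM in SD, where lights had been off, and 0 counts in all 6 libraries of EQ and LD. With 3 counts per library as a floor for the groups at 0, SD was 108-fold above the floor of EQ and 120-fold above that of LD. In other groups a listed 0 of ASN1 stood beside up to 57 counts, so these folds are no firm lower bounds. FDR was 0.00288 against EQ and 0.00488 against LD. The EQ call was lost without replicate B (0.0562), and the LD call without replicate A (0.0665) or C (0.0640). At ZT16, after dusk in EQ, ASN1 had 22.8, 37.2 and 27.6 CPM there, 12.4, 10.5 and 17.5 in SD and 2.43, 0 and 0 in LD, still in the light. EQ was above LD with FDR = 0.0385, lost without replicate B (0.188) or C (0.182) and without the filter (0.0668).

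Across dusk in SD ASN1 went from 0, 0 and 10.3 CPM to 63.0, 83.0 and 130. The log2 fold change was 4.74 (SE 1.5, FDR = 0.0370), lost without replicate A (0.157) or B (0.297) and without the filter (0.0636). In EQ it went from 0 counts in all libraries to 22.8, 37.2 and 27.6 CPM, 34.4-fold above the floor of 3 counts per library. Its FDR was 0.00403, and the call was lost without replicate B (0.108) or C (0.0637). In LD it went from 2.43, 0 and 0 to 0, 5.62 and 7.78 CPM, which did not pass (2.42, SE 1.51, FDR = 0.419). No difference between these steps passed (lowest FDR = 0.396, EQ against LD). Over the dusk step 2 of 9 members passed in SD against 9.73% of all genes, 2 in EQ against 6.02% and 1 in LD against 6.14%. The rise did not last the night in SD, where ASN1 was at 13.5 ± 3.64 CPM at ZT16 and 4.88 ± 4.22 at ZT20, and then 44.8 ± 14.3 at ZT00 (s.d., n = 3). At ZT00 the means fell from SD through 20.3 ± 10.2 in EQ to 13.9 ± 4.42 in LD, with overlap between SD and EQ and between EQ and LD. SD lay above LD, and edgeR made no call (FDR = 0.226 for SD against LD), while DESeq2 called ASN1 there (adjusted p = 0.00295).

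**Figure D4:**
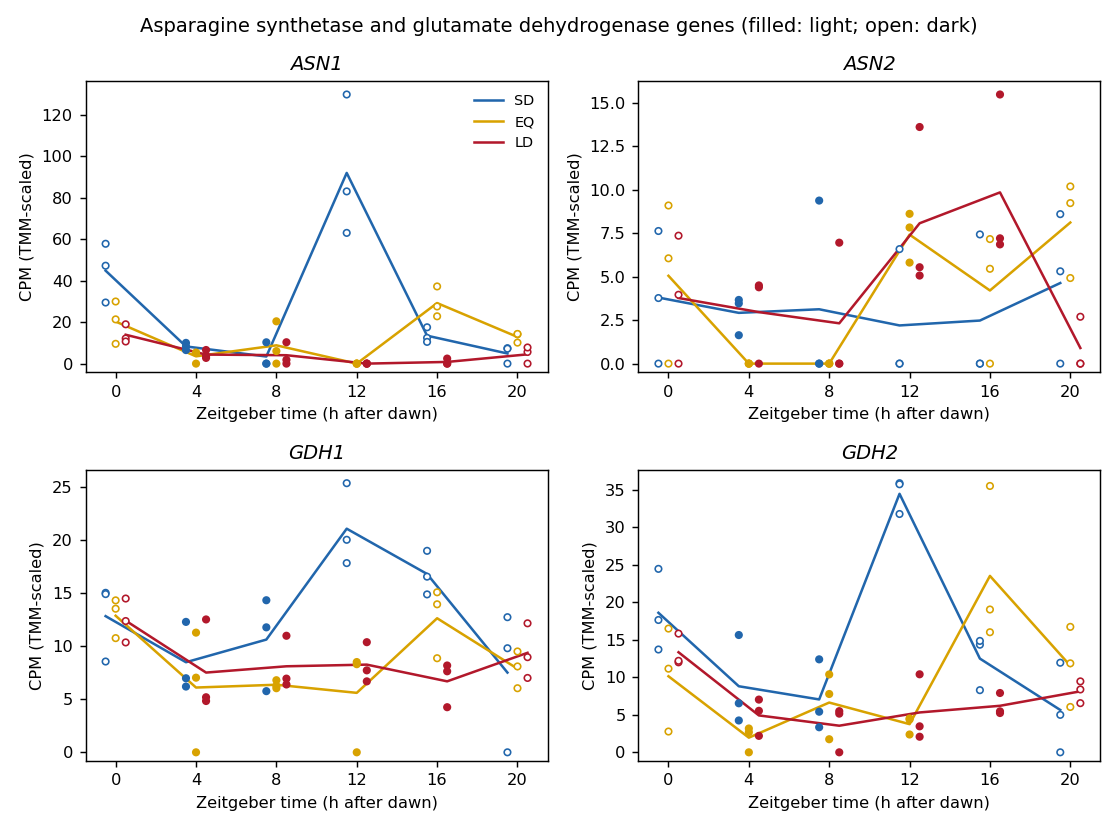
Level in CPM against zeitgeber time for ASN1, ASN2, GDH1 and GDH2, drawn as for the other genes (SD blue, EQ yellow, LD red, filled in the light, open in the dark, lines through means of 3 libraries). ASN1, GDH1 and GDH2 have their highest SD mean at ZT12 (91.9, 21.1 and 34.4 CPM), and ASN1 and GDH2 their highest EQ mean at ZT16 (29.2 and 23.5 CPM).

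GDH2 (chr5:2355759-2358241, plus strand), a subunit of glutamate dehydrogenase, shared this timing. At ZT12 it had 35.9, 35.7 and 31.8 CPM in SD, 2.37, 4.37 and 4.51 in EQ and 3.46, 10.4 and 2.08 in LD, and SD lay above both. The log2 fold change was 3.21 against EQ (SE 0.30, FDR = 0.00230), lost without replicate B (0.0579), and 2.73 against LD (SE 0.60, FDR = 0.0368), lost without replicate A (0.221) or C (0.163), without the filter (0.0562) and in 1 fit of 54 libraries (0.0645). At ZT16 its libraries had 16.0, 35.5 and 19.0 CPM in EQ, 14.3, 8.28 and 14.8 in SD and 5.46, 7.90 and 5.24 in LD. EQ was above LD by 1.96 (SE 0.39, FDR = 0.0248), lost with any 1 replicate left out (0.0875 to 0.144) and in 1 fit of 54 libraries (0.270). Across dusk its fold changes of 2.28 in SD (SE 0.92, FDR = 0.134) and 2.63 in EQ (SE 0.94, FDR = 0.103) did not pass by edgeR. DESeq2 called both for GDH2 (adjusted p = 0.0174 and 0.00929), and the one in EQ also passed with the stricter filter (FDR = 0.0487).

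GDH1 (chr5:6006035-6008726, plus strand), the other subunit, had 20.0, 25.4 and 17.8 CPM at ZT12 in SD and 10.4, 7.73 and 6.69 in LD. In EQ at ZT12 GDH1 had 8.31, 8.51 and 0 CPM, the 0 beside 28 and 37 counts. This was below SD, with no call by edgeR. At ZT16 GDH1 had 14.9, 16.6 and 19.0 CPM in SD and 8.19, 7.64 and 4.25 in LD, and SD and LD did not overlap at either time. The log2 fold changes of SD against LD were 1.38 (SE 0.28, FDR = 0.0304) and 1.36 (SE 0.32, FDR = 0.0450). Both calls were lost with any 1 replicate left out (0.135 to 0.179), without the filter (0.0850 and 0.128) and in 1 fit of 54 libraries (0.380 and 0.402), and the one at ZT16 also with library totals as the only scaling (0.0528). ASN2 (chr5:25969035-25972575, plus strand), the second asparagine synthetase, passed the test over the day in no photoperiod by edgeR. Its highest mean in SD and EQ was at ZT20, in the dark (4.63 ± 4.33 and 8.11 ± 2.80 CPM). The light sample ZT12 of EQ was at 7.41 ± 1.45 CPM, and the means of light and dark samples in SD were 3.02 and 3.27. Its highest mean in LD was 9.84 ± 4.88 CPM at ZT16, in the light (15.5, 6.85 and 7.20), against 2.47 ± 4.29 in SD (0, 0 and 7.42; s.d., n = 3). It was tested in 12 of 18 comparisons and called in 0 by edgeR and by DESeq2, with 0 at an unadjusted p under 0.05. ASN3 lies at chr5:3212651-3216551 on the minus strand.

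Counted by time point, 4 of 9 members were called between SD and LD at ZT12, 3 higher and 1 lower in SD, where 13% of all genes were called, 6.98% higher and 6% lower. At ZT16 they were 3 of 9 against 13.7%. Between SD and EQ at ZT12 they were 3 of 9 against 17.9%, and between EQ and LD at ZT16 4 of 9 against 14.2%. The members' median log2 fold change in these comparisons was -0.31, -0.45, -0.25 and -0.34, and that of all genes -0.07, -0.05, -0.05 and -0.02. Comparisons at 1 time share libraries, such as those of SD at ZT12 and those of LD at ZT16.

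Across the 18 group means of log2(CPM + 0.5), GDH1 and GDH2 followed each other most closely of the members (Pearson's r = 0.83), followed by ASN1 and GDH2 (r = 0.78) and ASN1 and GDH1 (r = 0.70). NIR1 and GLU1 had r = 0.66, and NIR1 and ASN1 r = -0.75. NIA2 had r = -0.49 with NIR1 and 0.49 with NIA1. These group means share libraries between genes and are given as a description. By edgeR GDH1 and GDH2 passed the test over the day in no photoperiod, and the highest EQ mean of GDH1 was at ZT00. Among all genes that passed the filter, those nearest to NIA2 were AT1G68440 (r = 0.96) and AT1G49205 (0.94), to NIR1 AT5G06790 (0.90) and EXPA5 (0.89), and to GLN2 AT3G47120 (0.87) and RBCS1A (0.86). To GLU1 they were AT5G50860 and UGT78D1 (0.88 each), and to NIA1 AT3G22150 (0.79) and AFP2 (0.75). ASN1 was nearest to ATBETAFRUCT4, a vacuolar invertase, and OTP43 (0.92 each), GDH2 to SIP2 (0.94) and ERD5 (0.93), a proline dehydrogenase, GDH1 to VEP1 (0.86) and DIN10 (0.84), and ASN2 to AT5G05480 (0.79) and NAC041 (0.77). Of these, AT3G22150, AT3G47120 and AT5G50860 averaged fewer than 6 counts, and AFP2, AT1G49205, AT5G50860, OTP43, AT5G05480, VEP1 and DIN10 overlap a gene on the opposite strand.

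Other genes of nitrogen use were read from fixed lists. Of 17 nitrate and ammonium transporters, 10 were tested day-wide and 2 were lower in SD than in LD, with a list median of -0.04 against -0.06 over all genes, of which 6.23% were lower. These were AMT1;2, an ammonium transporter, at -0.93 (SE 0.18, FDR = 0.000266), and NRT2.7, the nitrate transporter of the seed vacuole, at -0.43 (SE 0.11, FDR = 0.00696). NRT2.6 was at 0.13 (SE 0.17, FDR = 0.903) day-wide, with an interaction at FDR = 0.0440. Of 8 other glutamine and glutamate enzymes 5 were tested, with a median of -0.65, and 1 was lower against the same 6.23% of all genes, the NADH-dependent glutamate synthase GLT1 (-0.51, SE 0.15, FDR = 0.0158). The cytosolic glutamine synthetase GLN1;2 was at -0.65 (SE 0.24, FDR = 0.0651). Of 7 enzymes of aspartate and asparagine use 7 were tested and edgeR called 0, with 0 at an unadjusted p under 0.05. Their named genes ASP4 (-1.20, SE 0.91) and ASP5 (0.01, SE 0.55) are aspartate aminotransferases. The same held day-wide for 6 genes of reductant and cofactor supply, of which only G6PD3 averaged 10 counts or more, and it was at 0 in 39 libraries. At ZT16 G6PD3 had 339, 435 and 333 counts in LD and 0 in all libraries of SD and EQ. By time point, 1 of 2 tested in this list was lower in SD than in LD at ZT12 (13% of all genes called). At ZT16 it was 1 of 2 in SD (13.7%) and 1 of 1 in EQ (14.2%) against LD. DESeq2 was not read for these lists.

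Among 16 regulators, 14 were tested, 2 were higher in SD over the day, against 5.78% of all genes, and the median was 0.02. BZIP53, a bZIP factor known to act on genes of amino acid use in the dark, was at 0.63 (SE 0.20, FDR = 0.0319). LBD37, a repressor of nitrate-responsive genes, did not pass day-wide (0.35, SE 0.14, FDR = 0.101) but passed the interaction (FDR = 0.000134), and so did its relative LBD39 (FDR = 0.0412). LBD37 rose across dusk in SD (1.32, SE 0.35, FDR = 0.00777), EQ (1.78, SE 0.35, FDR = 0.000517) and LD (1.31, SE 0.35, FDR = 0.0131). Of 7 other dark-inducible genes 4 were tested and 2 were higher in SD day-wide, against the same 5.78%, DIN1 at 2.68 (SE 0.59, FDR = 0.00131) and DIN10 at 0.76 (SE 0.21, FDR = 0.00997). At ZT12 DIN1 had 372, 323 and 396 counts in SD, 0 in all 3 libraries of EQ, and 15, 0 and 0 in LD. DIN10 had 551, 530 and 727 counts in SD against 54, 105 and 64 in EQ and 41, 129 and 82 in LD.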

How the data were processed

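The authors trimmed reads with Trimmomatic 0.39, aligned them with HISAT2 2.1.0 to TAIR10 plus spike-ins under a stranded setting, and assigned them with StringTie 2.1.2. Their deposited table gives raw counts in whole numbers for each gene, written by prepDE. Here, spike-ins were left out, and edgeR 4.0.16 in R 4.3.3 (TMM, filterByExpr at a minimum count of 10, quasi-likelihood test, Benjamini-Hochberg over all genes tested) gave each difference. The 18 comparisons of 2 photoperiods at 1 time used their own 6 libraries. Day-wide, dawn, dusk, over-the-day and interaction tests used 1 fit of 54 libraries with 18 group means. SE is the log2 fold change over the root of F. Dawn is ZT04 minus ZT00, dusk the first dark minus the last light time point. Within a photoperiod, light state and time of day change together in both steps and cannot be told apart. Levels are TMM-scaled CPM. The DEI followed the trapezoid rule with ZT00 repeated at 24 h. Alternatives were DESeq2 1.42.0, its size factors, library totals, other filters, a replicate block and each replicate left out. The fit was tested on simulated data.

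Groups follow the sample labels. All 10 members are named. From each other list at most 3 genes with a mean of at least 10 counts and the lowest p are named, and for each member the 2 genes with the highest correlation. The members and lists were chosen with earlier results of these data known. Gene models, overlaps and promoters came from RefSeq TAIR10.1, and 32548 identifiers matched it. Replicates are pools of separate plates by the methods, and no pair of replicates agreed within sampling noise (chi-square per degree of freedom 15.7 or more over 54 pairs). The floor of 3 counts covers counting error only, while each SE and s.d. carries the spread between replicates.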

Additional observations from a re-analysis of the deposited data

Results flagged for a closer look

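GLU1 changed differently across dusk in SD and in LD. Its log2 change from the last light to the first dark time point was 0.17 (SE 0.21) in SD and -1.22 (SE 0.21) in LD, a difference of 1.39 (SE 0.30, FDR = 0.00284 by edgeR's quasi-likelihood test over 14115 genes). The last light sample was ZT08 in SD (37.7 CPM) and ZT16 in LD (104 CPM), and the first dark samples were at 42.3 and 44.4 CPM. The call was lost without replicate B (FDR = 0.198) or C (0.129).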

How the results depend on the processing

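Counts of member calls moved with the filter, the tool and the replicates kept. The 7 calls between SD and LD over 6 time points became 3 without a filter, 11 with DESeq2 and 0 to 2 without 1 replicate, the 3 between SD and EQ became 7 with DESeq2 and 0 to 2, and the 4 between EQ and LD 0 to 1. Day-wide between SD and EQ 1 call became 2 with library totals as the only scaling, 0 without a filter, 3 with the stricter filter, 3 with DESeq2 and 0 without any 1 replicate, and between EQ and LD 0 became 1 with DESeq2. The 3 interaction calls became 5 with DESeq2 and 0 to 2 without 1 replicate. Over the day, 4 calls in SD became 2 to 3 without 1 replicate, 3 in EQ became 5 with DESeq2 and 1 to 2, and 3 in LD became 5 with library totals, 2 with DESeq2's size factors and 1 to 2. At dusk the 2 calls in SD and the 2 in EQ each became 1 with library totals, 1 without a filter and 0 to 1 without 1 replicate, with 3 by DESeq2 in each, and the 1 in LD became 2 with DESeq2. At dawn 1 call in EQ became 2 with library totals and 2 with DESeq2, and 2 in LD became 1 without a filter and 1 to 2 without 1 replicate.

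With the replicate letter as a block, the 7 calls between SD and LD became 0 and the 4 between EQ and LD 1. The block also takes degrees of freedom from each comparison of 6 libraries. A correlation over 0.1 between deviations was found in 0 of 459 same-letter and 0 of 918 different-letter pairs of libraries, so this cutoff does not separate them. The median correlation was 0.0019 in same-letter pairs and -0.0013 in different-letter pairs. Of 54 libraries, 23 were nearest to their own letter, a count given without an expected number. Whether libraries of the same letter share more than a name was not tested. Over single member calls under all alternatives, 296 stayed past the threshold, 105 did not and 0 turned direction. Of 27 log2 DEI ratios, 5 moved by more than their spread with means of log2 CPM and 2, both of ASN2, without replicate C. Library totals as the only scaling moved the median of all genes by 0.23 (dusk of SD minus dusk of LD), 0.19 (SD minus LD at ZT08) and 0.18 (dawn in LD). Single zeros beside up to 57 counts limit ASN1, ASN2, GDH1 and GDH2 most.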

Other observations

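The ammonium transporter AMT1;2 was lowest at ZT12 in SD, with 20, 14 and 21 counts, and highest at ZT04 in LD, with 88, 153 and 83. In each photoperiod its highest mean was at ZT04, the first light sample, with 19.0 ± 9.89 CPM for SD, 31.6 ± 12.5 for EQ and 34.3 ± 10.8 for LD (s.d., n = 3).

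The repressor gene LBD37 had its highest mean at ZT16 in SD (48.2 ± 7.69 CPM), at ZT16 in EQ (34.5 ± 2.76) and at ZT00 in LD (40.2 ± 5.92; s.d., n = 3), all in the dark. In EQ LBD37 had nearly the same mean at ZT20 (34.4 ± 1.85) and ZT00 (34.2 ± 1.15). At ZT16 its libraries had 200, 164 and 167 counts in SD, 103, 129 and 96 in EQ and 43, 44 and 38 in LD, where the light was still on, so the 3 photoperiods did not overlap. The log2 fold change was 2.00 in SD against LD (SE 0.20, FDR = 0.00370) and 1.53 in EQ against LD (SE 0.17, FDR = 0.00358). In its lowest library, replicate A of EQ ZT12, LBD37 had 6 counts beside 45 and 56.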
